A study of Mus musculus with 10 samples.

Results

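The genes described here govern iron in mouse liver: lipocalin 2 (Lcn2), the hepcidin genes Hamp and Hamp2, transferrin (Trf), the transferrin receptors Tfrc and Tfr2, ferroportin (Slc40a1), the ferritin heavy chain (Fth1), Bmp6 and ceruloplasmin (Cp). They were chosen by name, with earlier results of these data known. A probe was taken as theirs through the RefSeq accession the array files give for it. The 10 genes have 11 of the array's 41174 probes, and 9 of the 10 were among the 26124 genes tested. Of these 26124, 15112 had a gene symbol. The rest were counted under the name the array files give, so some may repeat a gene. Shares of all genes below refer to all 26124. RNA came from fresh liver of male C57BL/6N mice after gavage in 3 groups. The first group received maltose at the calories of 5 g/kg ethanol (3 arrays), the second 5 g/kg ethanol (4 arrays) and the third 7 g/kg ethanol (3 arrays). Liver cDNA was labelled with Cy5 and a commercial mixed mouse RNA, the same on every array, with Cy3. The calories of the maltose gavage match the 5 g/kg dose and not the 7 g/kg dose, the labels give no age and no time after gavage, and no group without gavage was analysed here. A difference between ethanol and maltose therefore cannot be assigned to either, and calories and dose cannot be told apart at 7 g/kg.

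Hepcidin, the peptide made from Hamp, is released by hepatocytes and closes ferroportin, through which cells pass iron to the blood. Hepatocytes raise Hamp when BMP6 from neighbouring endothelium signals through SMAD proteins, with transferrin receptor 2 as a sensor of iron-loaded transferrin, and when interleukin 6 signals through STAT3. Transferrin receptor 1, from Tfrc, takes up iron-loaded transferrin and its mRNA is stabilised when a cell is short of iron, while ferritin stores iron and ceruloplasmin oxidises it for loading onto transferrin. Lipocalin 2 binds iron held by bacterial siderophores and is an acute phase protein of the liver.

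In these livers lipocalin 2 RNA was higher after ethanol at both doses, and transferrin receptor 1 RNA was lower at both. Hamp2 was lower at 5 g/kg, and Tfr2 was lower and Trf higher at 7 g/kg. The higher Trf ratio was not seen in the liver channel alone. No change of Hamp, Bmp6, Slc40a1 or Fth1 passed the test at either dose, and Cp could not be tested in the same way. Values below are log2 ratios of liver over reference after normalization within the array, so 0 means equal signal in both channels. A gene passed when its Benjamini-Hochberg adjusted p in limma, over all 26124 genes, was under 0.05 (two-sided). At 7 g/kg against maltose 4 of the 9 tested genes passed (44.4%), against 8.91% of all genes. Of them 2 were higher, against 4.63% of all genes, and 2 lower, against 4.28%. In 5 of 9 the groups did not overlap, against 25.3% of all genes. At 5 g/kg against maltose 3 of 9 passed (33.3%), against 3.79% of all genes. Of them 1 was higher, against 2.19% of all genes, and 2 lower, against 1.6%. In addition, 5 of 9 did not overlap, against 16.8%. These counts include Trf at both doses and Fth1 at 7 g/kg, which had only 2 values in 1 group. With spots marked as outliers kept, Trf overlapped maltose at both doses. Between 7 and 5 g/kg 1 of 9 passed (11.1%), against 1.56% of all genes (0.678% higher, 0.884% lower), and it was higher. Between these doses 2 of 9 did not overlap, against 10.9%. The median log2 change of the 9 genes was 0.05 at 7 g/kg and -0.08 at 5 g/kg against maltose, and that of all genes was 0.01 and 0.0022. With slide as a block 2 members passed at 7 g/kg (6.73% of all genes), 3 at 5 g/kg (3.42%) and 1 between doses (1.2%). The 3 comparisons share their arrays, both ethanol comparisons the same maltose arrays. The genes were chosen with earlier results of these data known, so their shares describe this set alone. Leaving out 1 array changed the counts of members: at 7 g/kg 2 passed without maltose array 1 and 2 without 7 g/kg array 2, and at 5 g/kg 1 passed without maltose array 1.

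Across the 10 arrays the median liver signal was 121 to 219 over a background of 21 to 24, no spot was saturated, and 67.3% to 86.2% of spots stood well above background. The arrays lay on 4 slides, none of which held 1 group alone, so changes were also computed with slide as a block, and for the members within slides. These values are given for the members that passed, and for genes of the lists and markers below whose call the block changes. Of the genes that passed, 51.9% were higher at 7 g/kg and 57.8% at 5 g/kg against maltose, and 43.4% at 7 g/kg against 5 g/kg. After median centring these shares were 66.7%, 75.4% and 52.4%, and with the Cy5 channel alone they were 62.4%, 69.8% and 60.5%. The labels number the replicates without saying more of the animals, so p-values measure the spread between these arrays. In whole liver RNA, fewer cells of a type and less RNA per cell cannot be told apart. Reference RNA tissue is given as liver in the labels, although its source is named as assorted RNA.

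**Figure D1:**
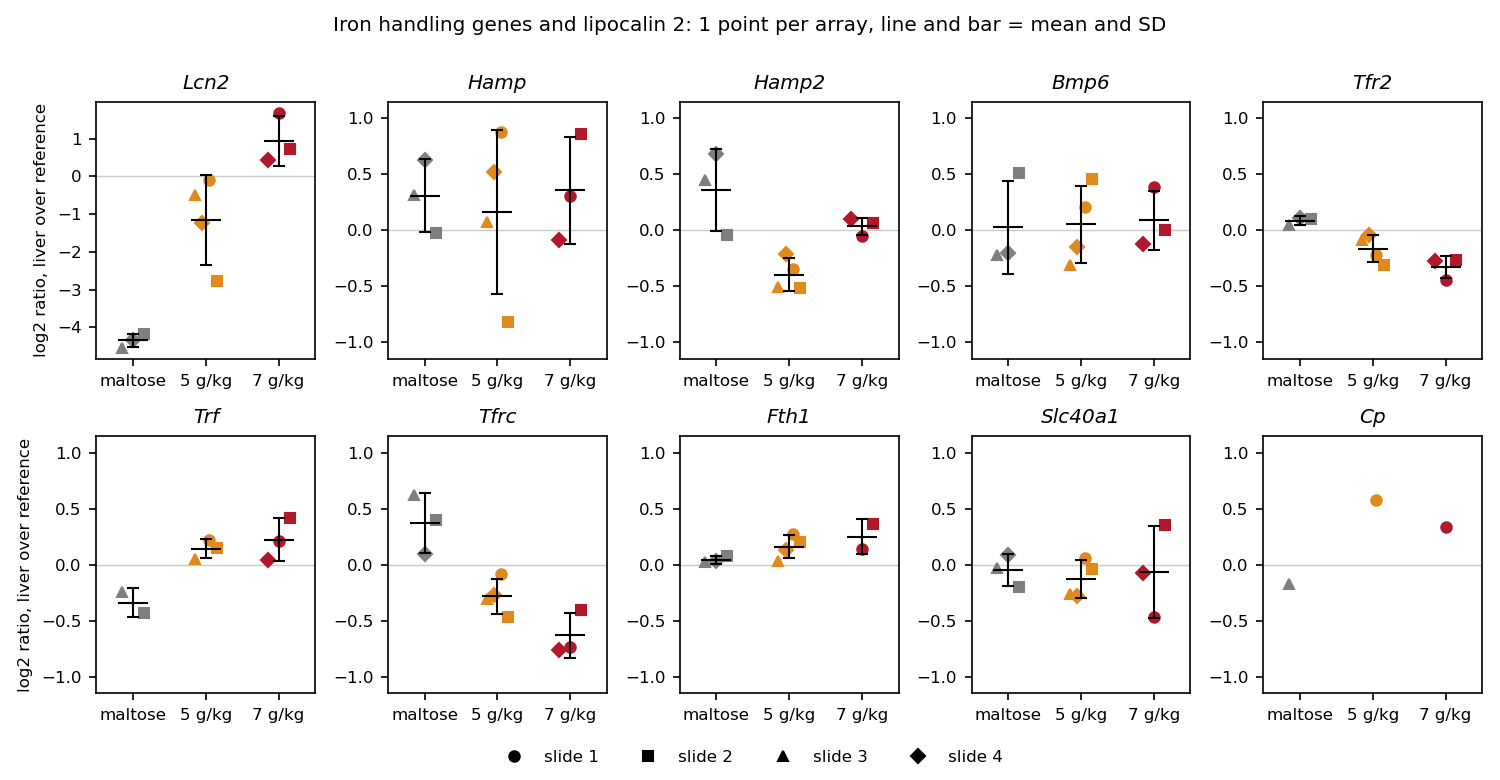
Log2 ratio of liver (Cy5) over reference (Cy3) for each of the 10 genes in maltose, 5 g/kg and 7 g/kg livers, left to right. Each point is 1 array, its symbol gives the slide, and the bar is the mean with its SD. Lcn2 separates the 3 groups completely, Tfrc and Tfr2 lie below all maltose arrays after ethanol, and Hamp overlaps throughout.

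Lipocalin 2 had the widest range of the 10 genes over the arrays. Its log2 ratio was -4.53, -4.32 and -4.17 in maltose livers, -0.49, -1.24, -0.09 and -2.78 in 5 g/kg livers, and 0.42, 1.67 and 0.72 in 7 g/kg livers. No 2 groups overlapped, the maltose arrays lay close together (SD 0.18, n = 3), and array 4 of the 5 g/kg group stood lowest among the ethanol arrays. The raw liver signal less background was 336, 154.5 and 441 in maltose livers, 4208, 2589, 9328 and 1183.5 in 5 g/kg livers, and 9541, 30093.5 and 17885 in 7 g/kg livers. The reference channel moved less than the liver channel, with a normalized log2 signal of 12.75 to 13.46 over the 10 arrays, against 8.17 to 14.64 for the liver channel. The liver spot stood well above background on every array, so the maltose level is a measured value.

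Lcn2 was 5.28 higher on the log2 scale at 7 g/kg than with maltose (SE 0.50, adjusted p = 1.59e-05, limma), a 38.9-fold difference with a 95% interval of 18.6 to 81.5. At 5 g/kg it was 3.19 higher than with maltose (SE 0.47, adjusted p = 0.00146, limma), which is 9.15-fold with an interval of 4.59 to 18.3. Both calls held under all 24 alternatives, including slide as a block, which gave 5.02 and 2.90. Within slides the 7 g/kg array exceeded the maltose array by 4.75 and 4.90, and the 5 g/kg array exceeded the maltose array by 1.39 to 4.04. The 2 ethanol doses also differed, by 2.09 for 7 over 5 g/kg (interval 1.09 to 3.09, 4.25-fold, adjusted p = 0.0376, limma), and by 1.66, 1.76 and 3.50 in the 3 slides that held both. That dose call was lost in 12 of 24 alternatives, with adjusted p of 0.0128 to 0.475 over the 24, and in 7 of the 10 that left out 1 array (0.0529 to 0.164). Those 7 left out any maltose array, any 7 g/kg array or 5 g/kg array 2. The dose difference stayed between 1.54 and 2.44 throughout.

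The 250 bases before the RefSeq start of Lcn2 (chr2:32387740-32387989, minus strand, GRCm38.p6) are shown because Lcn2 moved most, with a match to a C/EBP motif in capitals. The motifs searched on both strands of this window were TTGCNNAA for C/EBP, GGGAA followed by any 3 bases and CC for NF-kappaB, TTCNNNGAA for STAT, GGCGCC for the BMP response element and ACGTG for the hypoxia response element.
Lcn2: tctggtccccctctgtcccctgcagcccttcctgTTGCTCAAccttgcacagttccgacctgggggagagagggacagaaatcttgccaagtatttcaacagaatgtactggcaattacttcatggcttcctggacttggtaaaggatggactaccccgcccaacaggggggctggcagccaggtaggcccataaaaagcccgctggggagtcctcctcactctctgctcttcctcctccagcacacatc
The C/EBP match lies 216 bases upstream of the start, and 9.56% of 32851 mouse promoter windows of this length hold one. The Lcn2 window held no match to the other motifs searched. Of the 32851 windows 4.94% hold the NF-kappaB letters and 16.6% those of the hypoxia response element.

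Hamp encodes the hepcidin that acts on ferroportin in mouse. It varied more within groups (SD 0.33 to 0.73) than between them (means of 0.16 to 0.36). The log2 ratio of Hamp was 0.32, 0.63 and -0.02 in maltose livers, 0.07, 0.52, 0.88 and -0.82 in 5 g/kg livers, and -0.09, 0.30 and 0.86 in 7 g/kg livers. The groups overlapped in full, and 5 g/kg array 4 was lowest of all, as it was for Lcn2 among the ethanol arrays. The change was 0.05 at 7 g/kg (95% interval -0.67 to 0.77, adjusted p = 0.966, limma) and -0.15 at 5 g/kg (interval -0.82 to 0.53, adjusted p = 0.890). As ratios of ethanol over maltose, these intervals run from 0.63 to 1.71 at 7 g/kg and from 0.57 to 1.45 at 5 g/kg.

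Hamp2 lies next to Hamp as a near-identical gene whose peptide is not known to act on iron. For Hamp2 the log2 ratio was 0.45, 0.68 and -0.04 in maltose livers, -0.51, -0.21, -0.34 and -0.51 in 5 g/kg livers, and 0.10, -0.05 and 0.06 in 7 g/kg livers. All 5 g/kg arrays lay below all maltose and all 7 g/kg arrays, and maltose array 3 was the only one of its group below 0. Hamp2 fell by 0.76 at 5 g/kg against maltose (SE 0.15, 1.69-fold lower, adjusted p = 0.00928, limma). With slide as a block it fell by 0.75 (adjusted p = 0.0107), and within 3 slides the 5 g/kg array was lower by a log2 difference of -0.48, -0.96 and -0.89. Without maltose array 1 the change was -0.71 and its adjusted p 0.0535, and the call held in the other 23 of 24 alternatives (adjusted p of 0.00185 to 0.0535 over the 24).

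At 7 g/kg the Hamp2 change against maltose was -0.33 (interval -0.66 to 0.01, adjusted p = 0.264, limma). It passed only without maltose array 3, at -0.53 (adjusted p = 0.0311, with 0.0311 to 0.661 over 24 alternatives). The difference between the doses was 0.43 for 7 over 5 g/kg (interval 0.12 to 0.74, adjusted p = 0.232), so a dose difference did not pass. The Hamp and Hamp2 probes may each bind RNA of both genes, and the probe sequences were not used here.

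The windows before both hepcidin genes show how alike they are, with capitals for matches to the BMP response element and the STAT motif. Hamp is shown at chr7:30944030-30944279 and Hamp2 at chr7:30924182-30924431, both minus strand, RefSeq, GRCm38.p6.
Hamp: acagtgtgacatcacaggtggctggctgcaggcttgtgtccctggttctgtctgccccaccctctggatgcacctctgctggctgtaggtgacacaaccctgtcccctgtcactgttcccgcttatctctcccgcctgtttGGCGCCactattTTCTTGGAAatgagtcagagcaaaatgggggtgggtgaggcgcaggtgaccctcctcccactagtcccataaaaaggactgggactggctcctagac
Hamp2: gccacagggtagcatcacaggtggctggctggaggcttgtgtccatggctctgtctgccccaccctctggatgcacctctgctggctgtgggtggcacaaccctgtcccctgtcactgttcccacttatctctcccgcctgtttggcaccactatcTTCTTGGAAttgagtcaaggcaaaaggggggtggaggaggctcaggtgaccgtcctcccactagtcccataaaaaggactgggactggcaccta
The windows share 227 of 253 aligned positions (89.7%). In Hamp the BMP response element GGCGCC starts 109 bases and the STAT match TTCTTGGAA 97 bases upstream of the start, and they do not overlap. Hamp2 holds the same STAT match 94 bases upstream, and in place of the BMP letters it has GGCACC, the substitution G4A counted from 1 at the 5′ end of the motif. Of all windows, 9.59% hold the BMP letters and 7.02% the STAT letters.

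Bmp6, the growth factor that signals iron stores to hepatocytes, had 2 probes. Over the arrays its brighter probe spanned -0.22 to 0.51 in maltose livers, -0.31 to 0.46 in 5 g/kg livers and -0.12 to 0.38 in 7 g/kg livers. Its change was 0.06 at 7 g/kg (interval -0.41 to 0.53) and 0.03 at 5 g/kg (interval -0.41 to 0.46), with adjusted p of 0.932 and 0.977 (limma). The second probe gave 0.01 and 0.03. Its liver signal less background was low, 39 to 128 over the arrays, against 148 to 497 for the brighter probe.

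Tfr2, the hepatocyte receptor that reads transferrin saturation, was slightly lower after ethanol. Its log2 ratio was 0.05, 0.11 and 0.11 in maltose livers, -0.09, -0.05, -0.22 and -0.31 in 5 g/kg livers, and -0.27, -0.44 and -0.26 in 7 g/kg livers. Every ethanol array lay below every maltose array, and the doses overlapped. Tfr2 fell by 0.41 at 7 g/kg (SE 0.11, 1.33-fold lower, adjusted p = 0.0245, limma). At 5 g/kg the change was -0.25 (interval -0.47 to -0.04, adjusted p = 0.219). The 7 g/kg array was lower within both slides that held both groups, by log2 differences of -0.37 and -0.39, yet with slide as a block the change was -0.37 and its adjusted p 0.0886. The 7 g/kg call was lost in 9 of 24 alternatives, over which the change was -0.50 to -0.36 and the adjusted p 0.0175 to 0.345, among them those without any 1 maltose array or 7 g/kg array 2 (adjusted p of 0.0592 to 0.101).

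Tfrc, the receptor through which most cells take up transferrin-bound iron, was lower at both doses. Its log2 ratio, a mean over 9 or 10 spots per array, was 0.62, 0.09 and 0.40 in maltose livers, -0.31, -0.27, -0.09 and -0.46 in 5 g/kg livers, and -0.76, -0.73 and -0.40 in 7 g/kg livers. All ethanol arrays lay below all maltose arrays, and the doses overlapped. The SD between arrays of a group was 0.16 to 0.27, and the SD over the spots of 1 array, which measures the array alone, was 0.08 to 0.19. The raw liver signal of Tfrc less background was low and overlapped between groups. It was 178.4 to 347.4 in maltose livers, 135.3 to 202.8 in 5 g/kg livers and 137.4 to 213.2 in 7 g/kg livers.

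Tfrc fell by 1.00 at 7 g/kg against maltose (SE 0.15, 2.00-fold lower, interval -1.32 to -0.69, adjusted p = 0.000592, limma), and this call held in all 24 alternatives (-1.35 to -0.88). At 5 g/kg it fell by 0.65 (SE 0.14, 1.57-fold lower, adjusted p = 0.0163). A fit with slide as a block gave -0.98 at 7 g/kg (adjusted p = 0.00391) and -0.66 at 5 g/kg (0.0285). Within slides the 7 g/kg array was lower than maltose by log2 differences of -0.80 and -0.85, and the 5 g/kg array by -0.86, -0.93 and -0.37. The 5 g/kg call was lost with Cy5 alone (adjusted p = 0.0674), without maltose array 1 (-0.53, adjusted p = 0.0991) and without maltose array 3 (-0.64, adjusted p = 0.0666), and held in the other 21 of 24 alternatives (adjusted p of 0.0101 to 0.0991 over the 24). The dose difference of -0.35 (interval -0.65 to -0.05) had an adjusted p of 0.343.

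**Figure D2:**
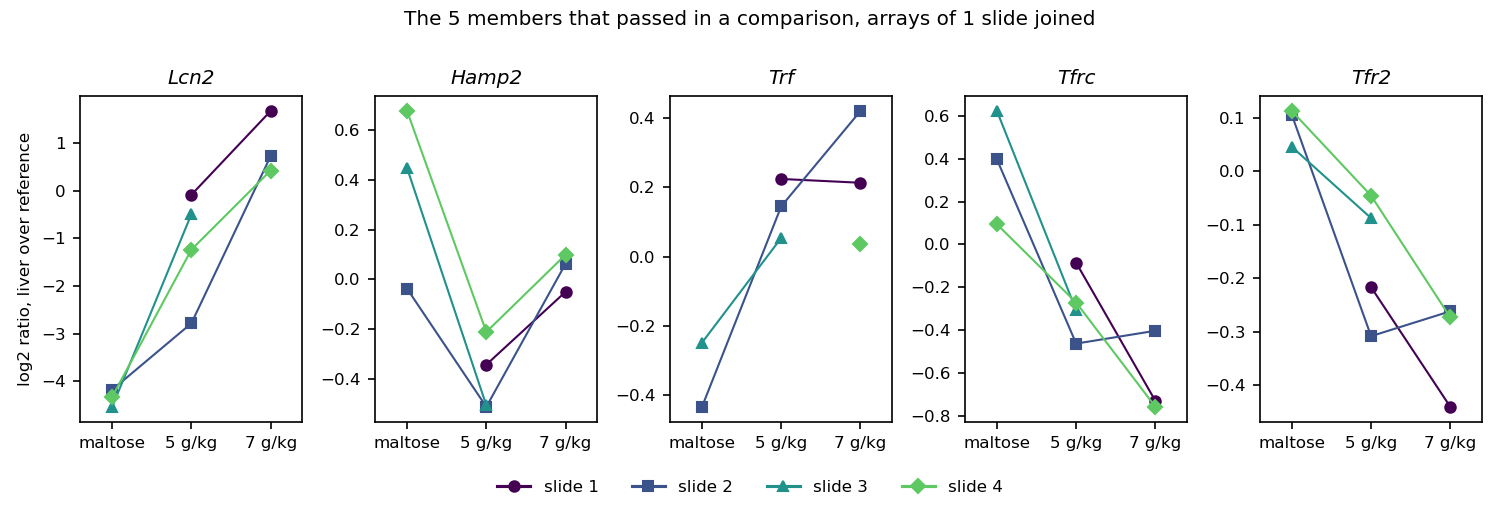
Log2 ratio of Lcn2, Hamp2, Trf, Tfrc and Tfr2 by group (maltose, 5 g/kg, 7 g/kg), with arrays of the same slide joined by a line. On every slide with a maltose array, Lcn2 is higher and Tfrc and Tfr2 are lower in the ethanol arrays than in that maltose array.

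Transferrin, the iron carrier that hepatocytes secrete into the blood, was a borderline case. Its log2 ratio was -0.25 and -0.43 in maltose livers, 0.05, 0.22 and 0.14 in 5 g/kg livers, and 0.04, 0.21 and 0.42 in 7 g/kg livers, because the spot was marked as an outlier on 1 maltose and 1 5 g/kg array and dropped there. The values that remained did not overlap between ethanol and maltose. Trf rose by 0.56 at 7 g/kg (SE 0.14, n = 3 and 2, 1.48-fold higher, adjusted p = 0.0227, limma), and at 5 g/kg the change was 0.48 (adjusted p = 0.0827, n = 3 and 2).

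With the marked spots kept, maltose array 2 had a Trf log2 ratio of 0.10, the groups overlapped, and the 7 g/kg change was 0.42 (adjusted p = 0.0880, limma). With slide as a block it was 0.67 (adjusted p = 0.0532), and in the 1 slide with usable spots of both groups it was 0.85. Within 2 slides the 5 g/kg array exceeded the maltose array by 0.30 and 0.58. With the Cy5 channel alone the 7 g/kg change was -0.0020. The call held in 13 of 22 alternatives, over which the adjusted p was 0.0173 to 0.9995. It was lost without 7 g/kg array 2 (adjusted p = 0.0541) and without 7 g/kg array 3 (0.47, adjusted p = 0.0690), and leaving out maltose array 1 or 3 left 1 maltose value, under the minimum of 2 per group, so no test was run there. The raw liver signal of Trf was 51224 to 70694 in 7 g/kg livers and 32346 to 55241 in maltose livers, which overlap. Raw values are not adjusted for array brightness, and the median liver signal was 191 to 219 on 7 g/kg arrays and 121 to 165 on maltose arrays. The normalized log2 liver signal of Trf had a mean of 15.59 at 7 g/kg and 15.59 with maltose. Its reference signal had a mean of 15.75 at 7 g/kg and 15.92 with maltose, so the higher ratio was not seen in the liver channel alone.

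Fth1 encodes the ferritin subunit that oxidises iron for storage. For Fth1 the log2 ratio was 0.02, 0.03 and 0.08 in maltose livers, 0.03, 0.13, 0.27 and 0.20 in 5 g/kg livers, and 0.14 and 0.36 in the 7 g/kg livers whose spot was usable. The 2 usable 7 g/kg values lay above all maltose values, while 5 g/kg overlapped maltose. The change was 0.21 at 7 g/kg (interval -0.05 to 0.47, adjusted p = 0.396, limma, n = 2 and 3) and 0.12 at 5 g/kg (adjusted p = 0.673).

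Slc40a1 encodes ferroportin, the exporter that hepcidin closes. Ferroportin had a log2 ratio of -0.03, 0.09 and -0.20 in maltose livers, -0.26, -0.28, 0.06 and -0.04 in 5 g/kg livers, and -0.08, -0.47 and 0.35 in 7 g/kg livers. The 7 g/kg arrays spanned all other arrays. The change was -0.02 at 7 g/kg (interval -0.39 to 0.35, adjusted p = 0.976, limma) and -0.08 at 5 g/kg (interval -0.43 to 0.26, adjusted p = 0.877).

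Ceruloplasmin, a copper-carrying ferroxidase of the plasma and an acute phase protein, had its spot marked as uneven in the liver channel on 7 of 10 arrays. The 3 usable log2 ratios were -0.17 in a maltose liver, 0.58 in a 5 g/kg liver and 0.34 in a 7 g/kg liver, 1 per group, so no test was made on them. With marked spots kept, the values were -0.17, -0.05 and -0.33 in maltose livers, 0.37, 0.17, 0.58 and 0.32 in 5 g/kg livers, and 0.07, 0.34 and 0.35 in 7 g/kg livers. On those values every ethanol array lay above every maltose array, and Cp was 0.44 higher at 7 g/kg (SE 0.13, 1.35-fold, adjusted p = 0.0478, limma) and 0.54 higher at 5 g/kg (SE 0.12, 1.46-fold, adjusted p = 0.0202). These Cp changes rest mostly on marked spots.

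**Figure D3:**
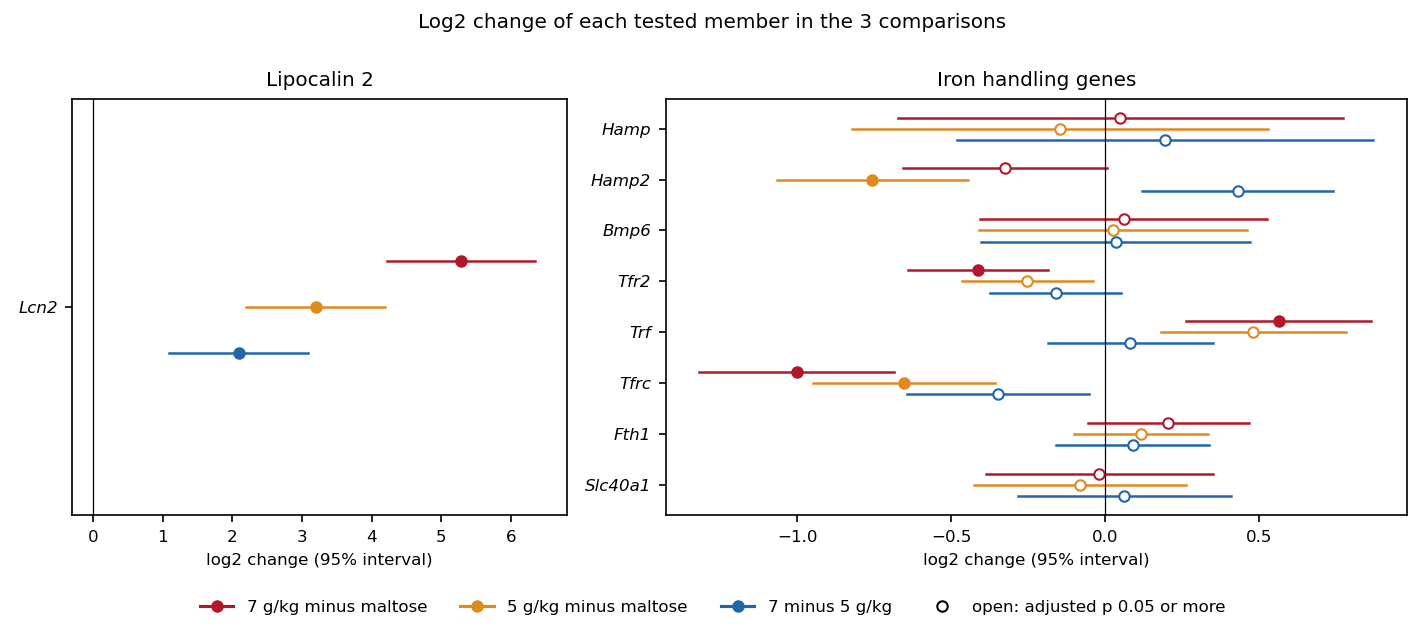
Log2 change of each tested gene with its 95% interval for 7 g/kg over maltose, 5 g/kg over maltose and 7 over 5 g/kg. Filled points passed (adjusted p under 0.05). Lcn2 stands apart at 5.28 and 3.19, and Tfrc is the only gene below 0 that passed at both doses. Cp is not drawn.

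Other genes of iron uptake, storage and export were read from a list, of which 18 were tested. At 7 g/kg against maltose 3 were higher, against 4.63% of all genes, 1 was lower, against 4.28%, and 14 did not pass, with a median of 0.0096. At 5 g/kg 3 were higher, against 2.19% of all genes, and 15 did not pass, with a median of -0.011. Slc39a14, which carries iron not bound to transferrin into hepatocytes, rose by 2.14 at 7 g/kg (SE 0.22, 4.40-fold, adjusted p = 2.79e-05, limma) and by 1.19 at 5 g/kg (adjusted p = 0.00421). The 2 doses differed for Slc39a14 by 0.95 (adjusted p = 0.0292, and 0.0995 with slide as a block). Scara5, a ferritin receptor, rose by 1.48 at 7 g/kg (adjusted p = 0.000707) and by 1.01 at 5 g/kg (adjusted p = 0.0138). Slc11a2, the divalent metal transporter of endosomes, rose by 0.73 at 7 g/kg (adjusted p = 0.0378). Pcbp2, an iron chaperone, fell by 0.54 at 7 g/kg (adjusted p = 0.0300, n = 3 and 2, and 0.152 with slide as a block). Ncoa4, the receptor that sends ferritin to be degraded, was chosen after its values were seen: its change was 0.01 at 7 g/kg, while it rose by 0.75 at 5 g/kg (adjusted p = 0.00515, n = 2 and 3). The doses differed for Ncoa4 by -0.74, 7 over 5 g/kg (adjusted p = 0.0171, n = 2 and 2, and 0.0954 with slide as a block).

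Of the genes known to control hepcidin, 22 were tested. At each dose 2 were higher and 0 lower, against 8.91% of all genes past the threshold at 7 g/kg and 3.79% at 5 g/kg. At 7 g/kg the share of the list is near that of all genes. Against maltose the medians were 0.10 at 7 g/kg and 0.15 at 5 g/kg. Stat3, the transcription factor downstream of interleukin 6, rose by 1.33 at 7 g/kg (SE 0.15, 2.52-fold, adjusted p = 5.87e-05, limma) and by 0.90 at 5 g/kg (adjusted p = 0.00185). Smad1, a BMP signal carrier, rose by 0.88 at 7 g/kg (adjusted p = 0.00443), and its change at 5 g/kg was 0.50 (adjusted p = 0.112). Hjv, the BMP co-receptor hemojuvelin, was chosen after its values were seen: it rose by 0.46 at 5 g/kg (adjusted p = 0.0175) and its change at 7 g/kg was 0.25 (adjusted p = 0.197). Id1, a gene that BMP signals raise, also chosen after its values were seen, had a change of -0.09 at 7 g/kg and 0.24 at 5 g/kg, neither of which passed. Il6 was on the array and was not among the genes tested.

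Among 18 tested genes of haem handling, 4 were higher and 3 lower at 7 g/kg, against 8.91% of all genes past the threshold. The 5 g/kg comparison had 1 higher and 2 lower, against 3.79%. Haptoglobin (Hp), the plasma scavenger of haemoglobin, rose by 2.03 at 7 g/kg (4.07-fold, adjusted p = 0.000147, limma) and by 1.86 at 5 g/kg (adjusted p = 0.000460). Haemopexin (Hpx), the scavenger of free haem, rose by 1.47 at 7 g/kg (adjusted p = 0.00118), against a change of 0.46 at 5 g/kg (adjusted p = 0.340), and the doses differed by 1.00 (adjusted p = 0.0341). Alas1, the rate-limiting enzyme of haem synthesis in liver, fell by 1.73 at 7 g/kg (SE 0.22, 3.32-fold lower, adjusted p = 0.000164), and its change at 5 g/kg was -0.77 (adjusted p = 0.0506). The doses differed for Alas1 by -0.96 (adjusted p = 0.0285, and 0.0626 with slide as a block). Alad, the next enzyme of that pathway, fell by 0.66 at 7 g/kg and by 0.67 at 5 g/kg (adjusted p = 0.00479 and 0.00647). Hmox1, which breaks haem down and frees its iron, was chosen after its values were seen and rose by 1.01 at 7 g/kg (adjusted p = 0.000673), while its change at 5 g/kg was 0.36 (adjusted p = 0.222), and the doses differed by 0.65 (adjusted p = 0.0317). The other genes past the threshold, also chosen after their values were seen, were Hmox2, a second haem oxygenase, which rose by 0.52 at 7 g/kg (adjusted p = 0.0102), and Blvrb, a biliverdin reductase, which fell by 0.48 there (adjusted p = 0.0314). Abcg2, a transporter that can export porphyrins and was chosen in the same way, fell by 0.54 at 5 g/kg (adjusted p = 0.0205) and had a change of -0.28 at 7 g/kg (adjusted p = 0.227). Fech, another gene of this list chosen after its values were seen, passed at 7 g/kg only with slide as a block. Its change there was -0.48 with the block (adjusted p = 0.0390, limma) and -0.35 without it (0.138).

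Of 17 tested genes of iron-sulfur cluster assembly, 0 were higher at either dose, 1 was lower at 7 g/kg and 2 at 5 g/kg, against 8.91% and 3.79% of all genes past the threshold. With slide as a block Ciapin1, an early factor of cytosolic assembly chosen after its values were seen, was higher at both doses, by 0.70 at 7 g/kg (adjusted p = 0.00650) and 0.47 at 5 g/kg (0.0459). Without the block its changes were 0.50 (adjusted p = 0.0959) and 0.35 (0.326). The 1 at 7 g/kg was Fdxr, which feeds electrons to ferredoxin and fell by 0.41 (adjusted p = 0.0497, limma, and 0.137 with slide as a block). The 2 at 5 g/kg, chosen after their values were seen, were the ferredoxin gene Fdx1, which fell by 0.68 (adjusted p = 0.0121), and Lyrm4, a partner of the cysteine desulfurase, which fell by 0.60 (adjusted p = 0.0230). The doses differed for Lyrm4 by 0.47, 7 over 5 g/kg (adjusted p = 0.128, and 0.0310 with slide as a block). The list of lipocalin 2 partners and siderophore synthesis had 6 tested genes. None of them passed in any of the 3 comparisons, at changes of -0.22 to 0.29 at 7 g/kg. They include the receptors Slc22a17 and Lrp2, the protease Mmp9 that lipocalin 2 binds, and Bdh2, which makes the mammalian siderophore.

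**Figure D4:**
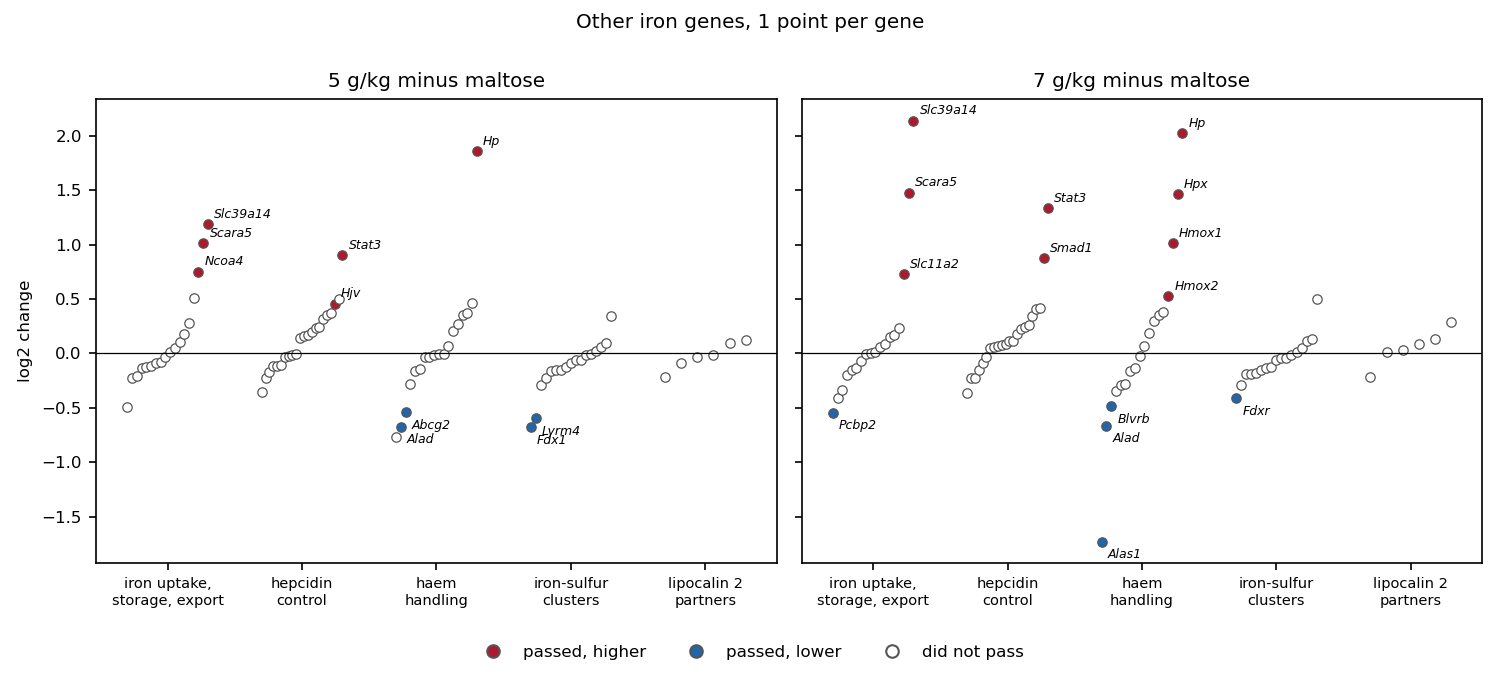
Log2 change against maltose at 5 g/kg and 7 g/kg for each tested gene of the 5 lists. The lists are iron uptake, storage and export, hepcidin control, haem, iron-sulfur cluster assembly, and lipocalin 2 partners with siderophore synthesis. Most genes lie near 0, with Slc39a14, Hp, Scara5, Hpx and Stat3 above and Alas1 below at 7 g/kg.

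Lipocalin 2 is also stored by neutrophils, so markers of other cells were read beside it. Of 13 tested neutrophil markers 2 were higher at 7 g/kg, against 4.63% of all genes, and 0 at 5 g/kg, against 2.19%. S100a9 rose by 1.40 at 7 g/kg (adjusted p = 0.00149, limma), and S100a8 passed there too, although its liver signal was not well above background on any of the 3 maltose arrays. The granule genes Mpo, Elane, Ngp, Camp and Ltf had log2 changes of -0.01, 0.02, 0.11, -0.13 and 0.29 at 7 g/kg and did not pass. The 14 neutrophil markers on the array summed to 0.0156% to 0.0247% of the liver signal at 7 g/kg. The sum was 0.0135% to 0.0278% at 5 g/kg and 0.0152% to 0.0284% with maltose. On each array 13 or 14 of these markers stood well above background. Their part in the Lcn2 difference was not tested.

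The marker counts below stand beside 4.63% of all genes higher and 4.28% lower at 7 g/kg. At 5 g/kg these shares were 2.19% and 1.6%. Of 11 Kupffer cell markers 0 passed at either dose, and their summed signal was 0.0177% to 0.0213% at 7 g/kg and 0.0171% to 0.0202% with maltose. Of 12 endothelial markers tested, 3 were higher at 7 g/kg (Lyve1 at 1.72, Cdh5 at 0.68 and Pecam1 at 0.59) and 2 at 5 g/kg (Lyve1 at 1.28 and Cdh5 at 0.59). With slide as a block Lyve1 passed at both doses, while Cdh5 (adjusted p = 0.0794 at 7 g/kg and 0.0836 at 5 g/kg) and Pecam1 (0.130 at 7 g/kg) did not. Stab1 passed at 5 g/kg only with the block, at 0.45 (adjusted p = 0.02995, limma, and 0.05175 without it). The summed signal of the endothelial markers was 0.0156% to 0.0173% at 7 g/kg, 0.0132% to 0.0162% at 5 g/kg and 0.0101% to 0.0131% with maltose. All 12 stood well above background on every array. Of 7 tested erythroid markers, which bear on Tfrc and Slc11a2, 1 was higher and 1 lower at 7 g/kg, and 0 were higher and 1 lower at 5 g/kg. Alas2 rose by 0.63 at 7 g/kg (adjusted p = 0.0338, and 0.143 with slide as a block), and Klf1 fell by 0.61 at 7 g/kg and by 0.79 at 5 g/kg. The globin genes Hba-a1 and Hbb-bt had the highest changes of the list and did not pass. Hba-a1 was at 1.12 for 7 g/kg and 1.36 for 5 g/kg (adjusted p = 0.0856 for the lower dose), and Hbb-bt at 0.99 for 7 g/kg and 1.19 for 5 g/kg (0.0779 for the lower dose). Neither overlapped maltose at the lower dose. The erythroid sum was 0.0404% to 0.144% at 7 g/kg, 0.05002% to 0.0733% at 5 g/kg and 0.0305% to 0.0397% with maltose, its highest value in 7 g/kg array 2. Hepatocyte markers, all 12 on the array well above background on every array, summed to 1.45% to 1.53% at 7 g/kg, 1.48% to 1.86% at 5 g/kg and 1.58% to 1.67% with maltose. Of 11 tested, 4 were higher and 1 lower at 7 g/kg, and 1 was higher at 5 g/kg. At 7 g/kg Ahsg was higher by 1.099, Tat by 0.72, Ttr by 0.69 and Ambp by 0.68, Apoh had a change of -0.47, and at 5 g/kg Ahsg was higher by 1.21. Tat (adjusted p = 0.0535) and Ttr (0.187) did not pass at 7 g/kg with slide as a block. Alb had a change of 0.08 at 7 g/kg and did not pass. The part of these markers in the changes of the iron genes was not tested.

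For the members that passed in at least 1 comparison, the genes with the most similar pattern over the arrays were listed by Pearson correlation among 13579 genes. The arrays hold 3 groups, so group differences enter these values, and they are a description. Closest to Lcn2 were Serpina3n, St3gal1 and Pnmt (r of 0.984, 0.983 and 0.976 over 10 arrays), and closest to Hamp2 were Ipo8, Ube2e2 and Commd10 (0.967, 0.953 and 0.951). Tfrc was most like Fahd1, Cpt1a and Tfb1m (0.974, 0.969 and 0.956), and Tfr2 was most like Chchd5, Gcgr and Brd7 (0.987, 0.981 and 0.972). Trf, over the 8 arrays with a value, was most like Olfr1349, Tepp and Rab12 (0.979, 0.978 and 0.972).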

How the data were processed

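Mouse liver RNA was hybridised to 10 Agilent mouse arrays in Cy5 against reference RNA in Cy3. The deposited median intensities of spots and backgrounds came from Agilent Feature Extraction 11.5.1.1, per the file headers, which also hold a deposited log10 ratio, red to green. The deposited series table holds log2 ratios, read from its values (slope 3.32 to 3.34 on the log10 ratio, r 0.94 to 1.00). No source used here states its other steps, and its column medians were -0.073 to 0.076.

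From the intensities, limma 3.58.1 in R 4.3.3 applied normexp with an offset of 50 and loess within arrays. Spots marked as outliers (2.42% to 5.83% per array) and control spots were left out, and spots of a probe were averaged. Probes well above background on at least 3 arrays were kept (33943), with at least 2 values per group and, per gene, the probe of highest mean signal. Of 41174 probes 24375 (59.2%) matched a symbol. All 10 arrays entered 1 fit of 3 means, with 7 residual degrees of freedom. The steps were tested on simulated data. Promoter windows come from RefSeq, and 8 of the 10 genes had one.

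The members and lists were chosen with earlier results of these data known. Named genes are the members, the 2 highest and 2 lowest passing genes of each list at 7 g/kg, and the 3 genes most like each passing member. Cell markers and genes said to be chosen after their values were seen are named beside these. Genes of the lipocalin 2 list are named as examples of that list. Alternatives changed background correction, normalization, channel, source, filters, probe choice, slide or replicate blocks and empirical Bayes settings, and left out each array.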

Additional observations from a re-analysis of the deposited data

How the results depend on the processing

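Against maltose, Lcn2 passed under all 24 alternatives at both doses, and Tfrc at 7 g/kg did too. The count of members passing at 7 g/kg against maltose (4) was 2 under median centring, Cy5 alone, the scanner log ratio, the series table and slide as a block, and 2 to 4 with 1 array left out. The count at 5 g/kg (3) was 1 to 3 with 1 array left out and 2 to 4 over the 14 other alternatives. The count between doses (1) was 0 with background subtracted, Cy5 alone, the scanner log ratio, the series table, and trend and robust settings, and 0 to 1 with 1 array left out.

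Genes passing at 7 g/kg against maltose (2328) were 518 with Cy5 alone and 1495 to 2334 with 1 array left out. Those at 5 g/kg (989) were 126 with Cy5 alone, 520 with the scanner log ratio, 584 with the series table and 461 to 1036 with 1 array left out. Those between doses (408) were 38, 116 and 138 in these 3 settings and 209 to 429 with 1 array left out. Arrays of the same replicate number did not consistently deviate together (correlations of -0.21 to 0.20 between their deviations from the group means). Pairing that is weak or limited to few genes would not show in these correlations. With the replicate number as a block, 3, 3 and 1 members and 2272, 909 and 271 genes passed.

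Changes that turned direction concerned genes that did not pass, apart from Trf. At 7 g/kg against maltose, Slc40a1 was 0.058 under median centring. With Cy5 alone Hamp was -0.27 and Trf -0.0020. Hamp was -0.020 with the scanner log ratio and -0.020 with the series table. With slide as a block Hamp was -0.099, Slc40a1 0.0021 and Bmp6 -0.15. At 5 g/kg, Bmp6 was -0.069 with slide as a block, and the replicate block gave Hamp 0.18 and Bmp6 -0.11. Between doses, Cy5 alone gave Hamp -0.067, Trf -0.18, Slc40a1 -0.19 and Bmp6 -0.19. Trf was -0.019 with the scanner log ratio and -0.011 with the series table, Bmp6 was -0.084 with slide as a block, and Hamp was -0.13 with the replicate block.

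With 1 array left out, the 7 g/kg change was -0.20 to 0.27 for Hamp, -0.23 to 0.18 for Slc40a1 and -0.088 to 0.30 for Bmp6. The 5 g/kg change was -0.38 to 0.18 for Hamp and -0.11 to 0.27 for Bmp6. The dose difference was -0.13 to 0.43 for Hamp, -0.15 to 0.26 for Slc40a1, -0.11 to 0.17 for Bmp6 and -0.016 to 0.18 for Trf. The cause was not tested. The number of arrays, 3 or 4 per group, limits the precision: over all genes the SE of a change had a median of 0.12 to 0.13.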
